A study of Mus musculus with 4 samples.

Results

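The Notch pathway was followed through 10 genes across a stepwise culture of primary mouse hepatocytes toward insulin-producing cells. The 10 are the receptor genes Notch1, Notch2, Notch3 and Notch4, the ligand genes Jag1, Jag2, Dll1 and Dll4, the regulator gene Dtx1 and the target gene Hes1. They were taken from the deposited read count table by gene name, and each name matched exactly 1 of its 30138 entries. Of the 10, 9 reached 1 CPM (the usual unit of reads relative to library size) in at least 1 library and stand among the 15222 genes compared, and Dll4 did not. The cells, labelled as primary mouse hepatocytes from liver, were sampled at stages S0, S1, S2 and S3 of 1 protocol, with a single library of total RNA per stage.

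S0 was the culture in medium free of fetal bovine serum, with 2% knockout-serum, B-27 and N-2 supplements and the growth factors bFGF and EGF, each at 20 ng/ml. Before that, the cells had grown with 10% serum and high glucose. S1 followed 5-AZA (5-azacytidine, an inhibitor of DNA methylation) at a labelled 5 mM for 48 h and then TSA (trichostatin A, an inhibitor of histone deacetylases) at 100 nM for 24 h. S2 followed ITS (insulin, transferrin and selenium) with RA (retinoic acid) at a labelled 2 mM for 7 days, and S3 followed nicotinamide at 10 mM for 7 days without FGF and EGF. The labels name no strain, age or sex. No untreated culture of the same age was analysed here, so time in culture and treatment cannot be told apart. With 1 library per stage, no difference between stages has a replicate check.

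Notch receptors sit in the cell membrane and are bound by Jagged and Delta-like ligands on a neighbouring cell. Binding lets ADAM proteases and then the gamma-secretase complex cut the receptor, and the freed intracellular part enters the nucleus, joins the DNA-binding protein RBPJ and switches on genes of the Hes and Hey families. In the liver the pathway, above all Jag1 and Notch2, is known for forming bile ducts. In the embryonic pancreas it is known for holding progenitors back from the endocrine fate through Hes1. Dtx1 encodes deltex 1, a cytoplasmic E3 ubiquitin ligase that binds the intracellular part of Notch receptors.

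Reads in genes numbered 22944047 (S2) to 27602967 (S0) per library, so that 3 reads, the level that a count of 0 allows, correspond to 0.103 to 0.137 CPM. Levels are given as CPM scaled between libraries by edgeR's trimmed mean of M-values (TMM). A gene is called higher or lower where the whole 95% counting interval of its ratio lies beyond 2-fold, and the range in parentheses after a fold is that interval (Clopper-Pearson, counting error only). The hepatocyte label was checked against 12 markers, of which 11 matched the table by name. Alb (albumin) stood at 234, 1724, 7171 and 3569 CPM from S0 to S3, while Tat had 0 reads at every stage and Cyp2e1 1 or 2. Asgr1 had 3, 11, 5 and 5 reads and Cps1 4, 84, 98 and 28. The 11 hepatocyte markers summed to 3548, 4028, 12085 and 6231 CPM, in S0 mostly Apob (3151 CPM). The 15 macrophage markers summed to 14042, 3371, 715 and 697 CPM over the same stages, so macrophage RNA was also present. In S0 their sum was larger than that of the hepatocyte markers, and Acta2, a mural cell marker, stood at 3895 CPM. Ratios against S0 thus have a baseline in which markers of other cell types were abundant. In such bulk libraries, fewer cells of a type and less RNA per cell cannot be told apart.

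Dtx1 was the member that differed most. It had 2, 881, 66 and 73 reads from S0 to S3, which is 0.0749, 30.3, 3.01 and 3.12 CPM. It was thus near the limit of detection in S0, stood high in S1 alone, and settled in S2 and S3 at a level between these. The ratio of S1 over S0 was 405-fold (112 to 3351), and by its lower bound Dtx1 ranked 2nd among the 15222 genes compared. S2 was 10.1-fold lower than S1 (7.86 to 13.2). S3 was 1.04-fold higher than S2, with an interval on the log2 scale of -0.45 to 0.55 that includes no change, and 41.6-fold higher than S0 (11.1 to 350.2). The S0 value rests on 2 reads, which sets the width of the intervals against that stage.

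**Figure D1:**
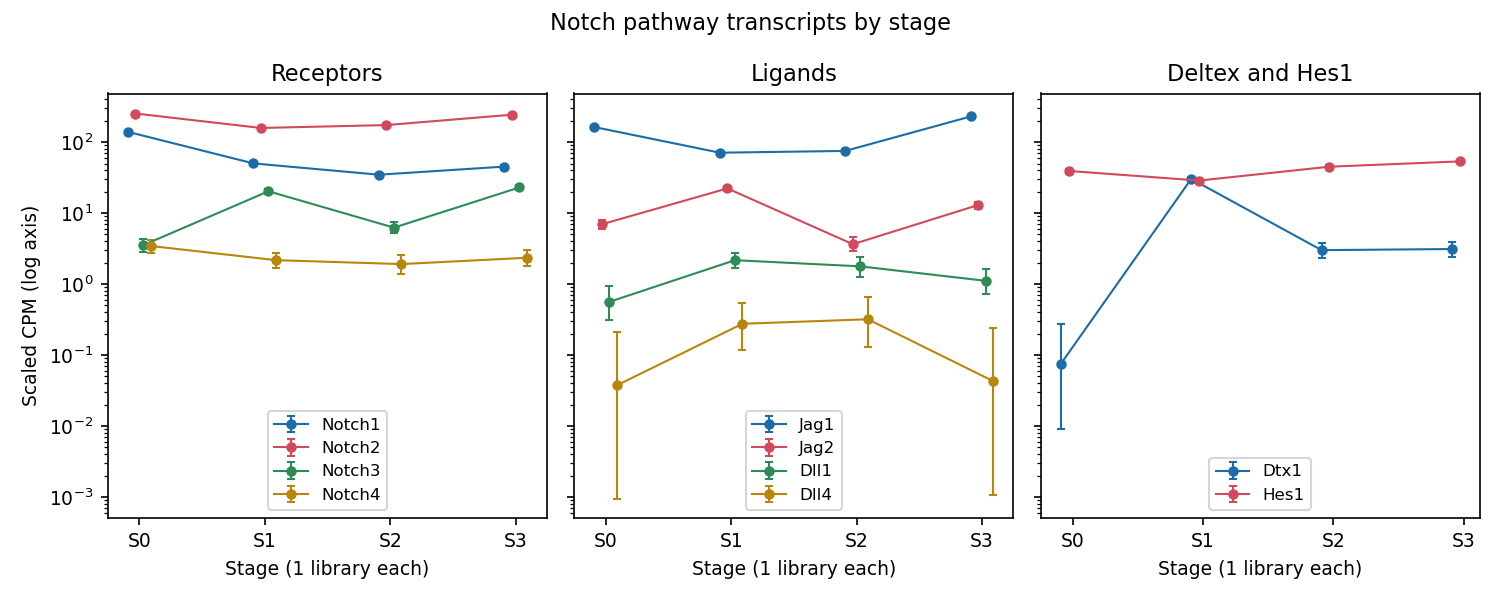
Scaled CPM (log axis) of the 10 genes at stages S0 to S3, 1 library per stage, in panels for receptors, ligands, and Dtx1 with Hes1. Points are the levels and bars their 95% Poisson counting intervals. Dtx1 has its lowest level in S0 (0.0749 CPM) and its highest in S1 (30.3 CPM), Notch3 and Jag2 are higher in S1 and S3 than in S0 and S2, and Hes1 stays between 28.8 and 53.5 CPM.

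Among the receptors, Notch2 and Notch1 were the abundant ones and Notch3 the one that moved most. Notch2, the receptor of bile duct formation, stood at 253, 158, 174 and 244 CPM from S0 to S3, and no ratio between stages passed 2-fold. Notch1, widely expressed and also used by leukocytes and endothelium, stood at 139.7, 50.2, 34.8 and 45.2 CPM. It was highest in S0 and the later stages lay close together. Notch3, known from vascular smooth muscle and pericytes, stood at 3.52, 20.3, 6.24 and 23.0 CPM, so that S1 and S3 were high and S0 and S2 low. Notch4, known from endothelium, was scarce, with 92, 63, 42 and 55 reads (3.44, 2.17, 1.91 and 2.35 CPM), and none of its ratios passed 2-fold.

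Of the ligands, Jag1 and Jag2 carried most of the signal. Jag1 stood at 163, 71.0, 75.2 and 230.5 CPM from S0 to S3, highest in S3 and about equally low in S1 and S2. Jag2 stood at 6.96, 22.3, 3.64 and 13.0 CPM, high in S1 and S3 like Notch3. Dll1, a Delta-like ligand of embryonic tissues, had 15, 63, 39 and 26 reads (0.562, 2.17, 1.78 and 1.11 CPM). Dll4, a ligand of sprouting endothelium, had 1, 8, 7 and 1 reads and stayed below 1 CPM throughout. Its ratio of S1 over S0 was 7.36-fold on the CPM scale, with an interval on the log2 scale of -0.02 to 8.35, so no difference was detectable at this depth.

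Hes1, the transcriptional repressor that Notch switches on in many tissues, varied little. Of the 4 members above 10 CPM at every stage (Notch1, Notch2, Jag1 and Hes1), only Notch2 varied less. It stood at 39.3, 28.8, 45.1 and 53.5 CPM, with its lowest value in S1, the stage at which Dtx1 peaked. Its highest and lowest stages differed 1.86-fold in CPM, against 1.6-fold for Notch2 and 405-fold for Dtx1.

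Levels of different genes can be set side by side only per gene length, for which the authors' RPKM values serve (reads per gene length and library size, without TMM scaling). By RPKM, Jag1 (10.2) and Hes1 (9.39) led in S0, with counting intervals that overlap, followed by Notch2 (8.46) and Notch1 (5.16). In S1 the order was Hes1 (7.73), Notch2 (5.96), Jag1 (4.99) and then Dtx1 (2.97), ahead of Jag2 (2.17) and Notch1 (2.09), whose intervals overlap. Dtx1 thus held the 4th place among the 10 members in S1, against the 9th in S0, where its interval overlapped that of Dll4. In S2, Jag2 (0.313), Notch3 (0.27), Dtx1 (0.26) and Dll1 (0.173) followed each other with overlapping intervals. In S3, Jag1 (14.6), Hes1 (12.9) and Notch2 (8.24) led with intervals that do not overlap.

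The make-up of receptor transcripts changed with stage. Notch2 held 60.6%, 64.95%, 77.8% and 74.4% of the summed receptor RPKM from S0 to S3, and Notch1 37.0%, 22.8%, 17.2% and 15.3%. Notch3 held 1.1%, 10.9%, 3.64% and 9.17%. Notch2 was therefore the main receptor transcript at all 4 stages, with Notch1 second. Among the ligands, Jag1 held 93.9%, 67.2%, 90.1% and 92.1% of the summed RPKM, and Jag2 5.55%, 29.2%, 6.04% and 7.2%. S1 was the stage at which Jag2 took its largest share, with Jag1 still the most abundant ligand transcript. The ligand sum was 10.9, 7.43, 5.19 and 15.8 RPKM, lowest in S2 and highest in S3.

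**Figure D2:**
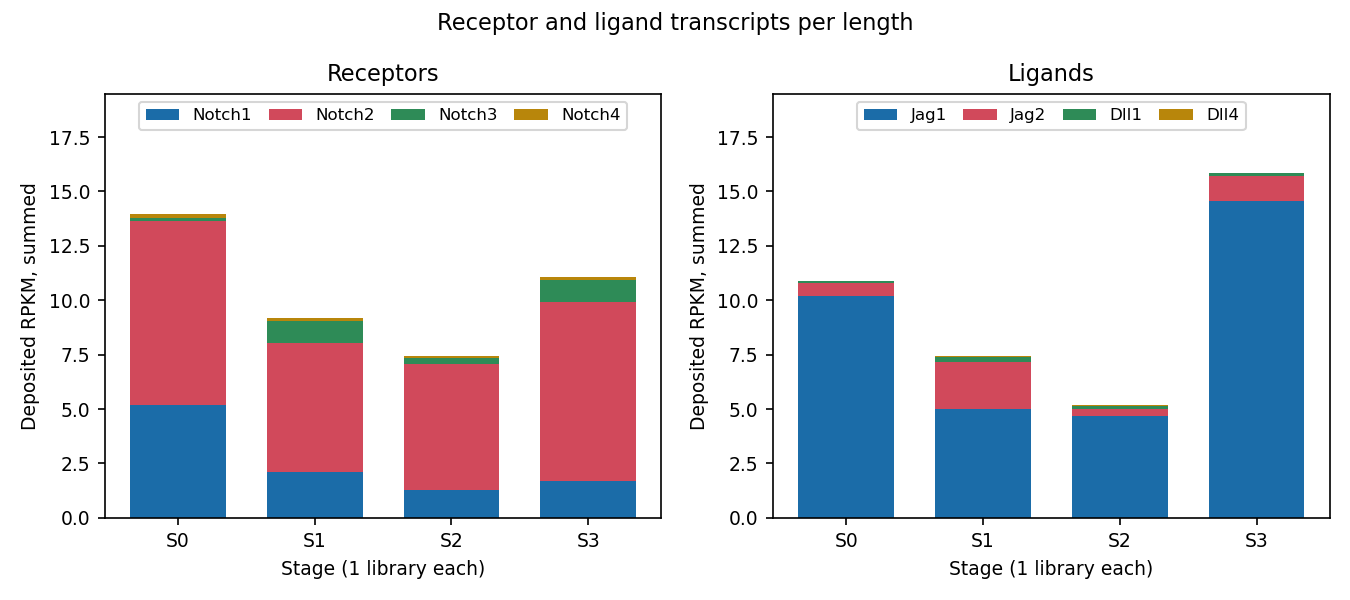
Deposited RPKM of the 4 receptor genes (left) and the 4 ligand genes (right), stacked, at stages S0 to S3 with 1 library each. Notch2 makes up the largest part of the receptor bar at every stage (60.6% to 77.8%) and Jag1 of the ligand bar (67.2% to 93.9%), with Jag2 at 29.2% in S1.

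The first comparison, S1 over S0, asks what the pathway's transcripts did across the step with both inhibitors. Of the 9 members compared, 4 were higher in S1 (Dtx1, Notch3, Jag2 and Dll1) and 2 lower (Notch1 and Jag1), while 12.6% of all genes compared were higher and 13.1% lower. The 10 genes were chosen with earlier results of these data known, so these counts are a description. Notch3 was 5.77-fold higher (4.64 to 7.26), Jag2 3.2-fold (2.71 to 3.79) and Dll1 3.86-fold (2.17 to 7.31). Dll1 and Dtx1 lay below 1 CPM in S0 and entered the comparison only through later stages, which favours a higher call. Notch1 was 2.78-fold lower (2.62 to 2.96) and Jag1 2.3-fold lower (2.18 to 2.42). All 4 higher members lay below 10 CPM in S0. Of the abundant members, Notch1 and Jag1 were the lower ones, and Notch2 and Hes1 stayed within 2-fold, at 1.6-fold lower (1.54 to 1.66) and 1.37-fold lower (1.25 to 1.5). Leaving out TMM scaling shifted the median log2 ratio over all genes by 0.17, and the Jag1 ratio had a log2 value of -1.03 and lost its call.

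**Figure D3:**
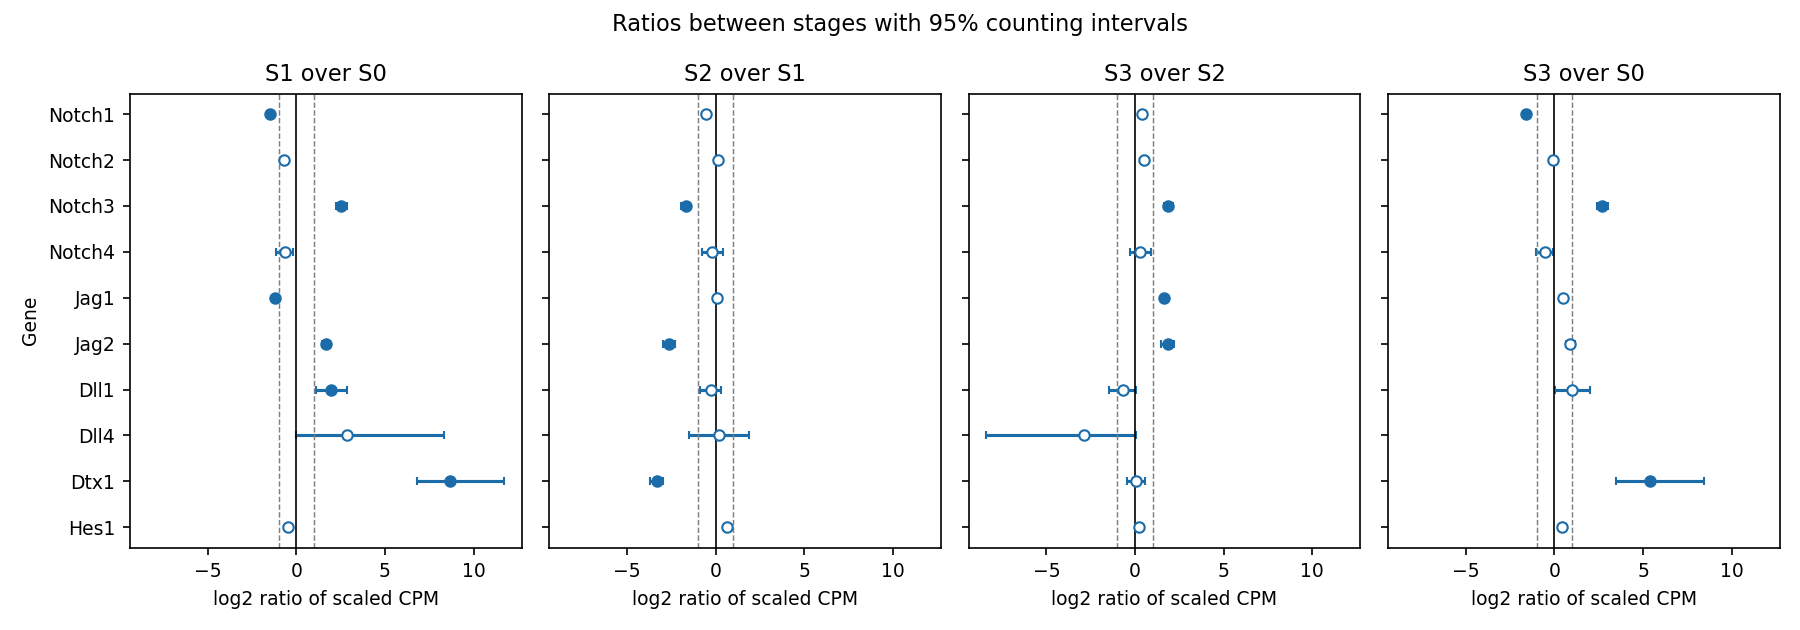
Log2 ratios of scaled CPM for the 10 genes in the 3 successive steps and in S3 over S0, with 95% counting intervals. Filled points are called higher or lower, dashed lines mark 2-fold, and Dll4 has no point in S3 over S0, where both libraries had 1 read. Dtx1 lies at 8.66 in S1 over S0 and at -3.34 in S2 over S1, and Notch3 alternates between 2.53, -1.70 and 1.88 over the 3 successive steps.

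The sequences upstream of the members with the 3 farthest lower bounds in S1 over S0 are shown because the step includes an inhibitor of DNA methylation, which acts on cytosines in CG pairs. No methylation was measured here. RefSeq windows (build GRCm38.p6, 250 bases before to 50 after the gene start) were found for 9 of the 10 members by symbol, with 2 windows for Dll1. Hes1 was the member without a window. The 250 bases before the start are printed 5′ to 3′ on the gene's strand, with CG pairs in capitals. Notch4, with the fewest CG pairs of the 10 windows and no call in any comparison, is shown beside them.
Dtx1 (minus strand, chr5:120711670-120711919): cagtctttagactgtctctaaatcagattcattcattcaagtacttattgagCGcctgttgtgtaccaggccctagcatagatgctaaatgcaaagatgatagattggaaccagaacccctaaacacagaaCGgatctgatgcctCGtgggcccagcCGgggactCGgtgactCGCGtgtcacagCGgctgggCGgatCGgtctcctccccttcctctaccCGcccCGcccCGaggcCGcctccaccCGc
Notch3 (minus strand, chr17:32166891-32167140): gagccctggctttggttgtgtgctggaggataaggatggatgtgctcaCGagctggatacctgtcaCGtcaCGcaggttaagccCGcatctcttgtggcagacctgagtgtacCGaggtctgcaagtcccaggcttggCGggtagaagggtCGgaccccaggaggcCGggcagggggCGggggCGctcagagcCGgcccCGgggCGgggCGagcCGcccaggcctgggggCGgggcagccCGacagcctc
Jag2 (minus strand, chr12:112929496-112929745): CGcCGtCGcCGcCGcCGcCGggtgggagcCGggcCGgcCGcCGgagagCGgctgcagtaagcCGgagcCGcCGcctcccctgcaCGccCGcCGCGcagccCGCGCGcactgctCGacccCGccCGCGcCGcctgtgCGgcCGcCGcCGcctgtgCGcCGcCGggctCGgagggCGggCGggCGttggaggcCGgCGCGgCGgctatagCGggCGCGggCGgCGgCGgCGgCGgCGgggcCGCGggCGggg
Notch4 (plus strand, chr17:34564045-34564294): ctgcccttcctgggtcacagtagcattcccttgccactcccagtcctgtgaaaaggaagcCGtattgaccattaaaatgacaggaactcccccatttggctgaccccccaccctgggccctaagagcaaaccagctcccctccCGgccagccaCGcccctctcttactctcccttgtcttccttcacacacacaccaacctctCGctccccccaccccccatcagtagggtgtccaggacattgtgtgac

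Over the full 300 bases, the window held 26 CG pairs for Dtx1, 25 for Notch3, 63 for Jag2 and 5 for Notch4, against a median of 7 over the 32851 windows of the table. Members with many CG pairs were found in every direction of change, since Notch2, without a call, had 41, Notch1, lower in S1, had 23 and Jag1, lower in S1, had 22. The letters TGGGAA, the core of the sequence that RBPJ binds, were searched on both strands of the 10 windows of the 9 members and were found in 0 of them. They were present in 25.6% of all windows in the table. Hes1 had no window in the table, so its promoter was not searched. The absence says only that these letters are not in these windows.

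Across the retinoic acid step, S2 over S1, no member was called higher. Of the 9 members, 0 were higher and 3 lower (Dtx1, Jag2 and Notch3), beside 6.71% of all genes compared higher and 10.1% lower. The genes lower in S2 were 3 of the 4 that had been higher in S1. Jag2 was 6.12-fold lower (4.84 to 7.82) and Notch3 3.26-fold lower (2.7 to 3.95). This comparison and the first share the S1 library, so a value particular to that library enters both. Dll1 was 1.22-fold lower, with an interval on the log2 scale of -0.90 to 0.31, and Notch1 1.44-fold lower (1.32 to 1.58). Hes1 was 1.57-fold higher (1.43 to 1.72). Notch2 and Jag1 were 1.1-fold and 1.06-fold higher in S2, and without TMM scaling both turned lower, with log2 ratios of -0.05 and -0.10.

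The third comparison, S3 over S2, covers nicotinamide and the loss of both growth factors. Of the 9 members 3 were higher (Notch3, Jag2 and Jag1) and 0 lower, beside 3.69% of all genes compared higher and 1.14% lower. Notch3 was 3.69-fold higher (3.05 to 4.48), Jag2 3.57-fold (2.79 to 4.63) and Jag1 3.06-fold (2.9 to 3.24). By the bound nearest to no change they ranked 240th, 293rd and 264th among the genes compared. A receptor and both Jagged ligands were therefore higher together in S3, and Dtx1, at 3.12 CPM in S3 and 3.01 CPM in S2, was not.

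Over the whole protocol, S3 over S0, Dtx1 and Notch3 were higher and Notch1 lower, beside 9.2% of all genes compared higher and 10.5% lower. Notch3 was 6.54-fold higher (5.24 to 8.23) and Notch1 3.09-fold lower (2.89 to 3.31). The other members compared had ratios within 2-fold of the start. Jag1 was 1.41-fold higher (1.36 to 1.47), Jag2 1.87-fold higher (1.55 to 2.26) and Hes1 1.36-fold higher (1.25 to 1.48), and Notch2 was 1.04-fold lower (1.0 to 1.08). Notch4 was 1.47-fold lower (1.04 to 2.09) and Dll1 1.98-fold higher (1.01 to 4.01), both on fewer than 100 reads a library.

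Several other genes known as Notch targets differed between stages beyond 2-fold, which Hes1 did not. Of 11 listed, 7 were compared and Hes5 and Ptcra had 0 reads at every stage. In S1 over S0, 2 were higher and 1 lower, beside 12.6% and 13.1% of all genes. Hey1, a repressor related to Hes1, had 16, 261, 6 and 23 reads from S0 to S3 (0.599, 8.99, 0.273 and 0.982 CPM), a stage order in which S1 alone was high. It was 15.0-fold higher in S1 than in S0 (9.07 to 26.6) and 32.9-fold lower in S2 than in S1 (14.9 to 90.5). Hey2 had 24, 66, 6 and 12 reads and was 8.32-fold lower in S2 than in S1 (3.63 to 23.5). Nrarp, a feedback inhibitor that Notch signalling induces, had 0, 62, 5 and 56 reads. With the 0 reads of S0 set at 3, it was 19.0-fold higher in S1 than in S0, with an interval from 15.0 upward. Nrarp was 9.38-fold lower in S2 than in S1 (3.81 to 29.9) and 10.5-fold higher in S3 than in S2 (4.24 to 33.6). Ccnd1, the cyclin D1 gene, which many pathways control, was 3.82-fold lower in S1 than in S0 (3.7 to 3.95) and 2.08-fold higher in S2 than in S1 (2.01 to 2.16). Hes6, another Hes family gene, stood at 23.4, 17.1, 24.1 and 33.8 CPM and was called in no comparison, while Hes2 and Hes3 had at most 21 and 6 reads in any library. Hey1 and Hey2 passed the limit of 1 CPM through S1 alone, and Nrarp through S1 and S3, so that the filter fixed the direction of their calls. Of the called targets, only Ccnd1 was above 1 CPM at every stage.

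**Figure D4:**
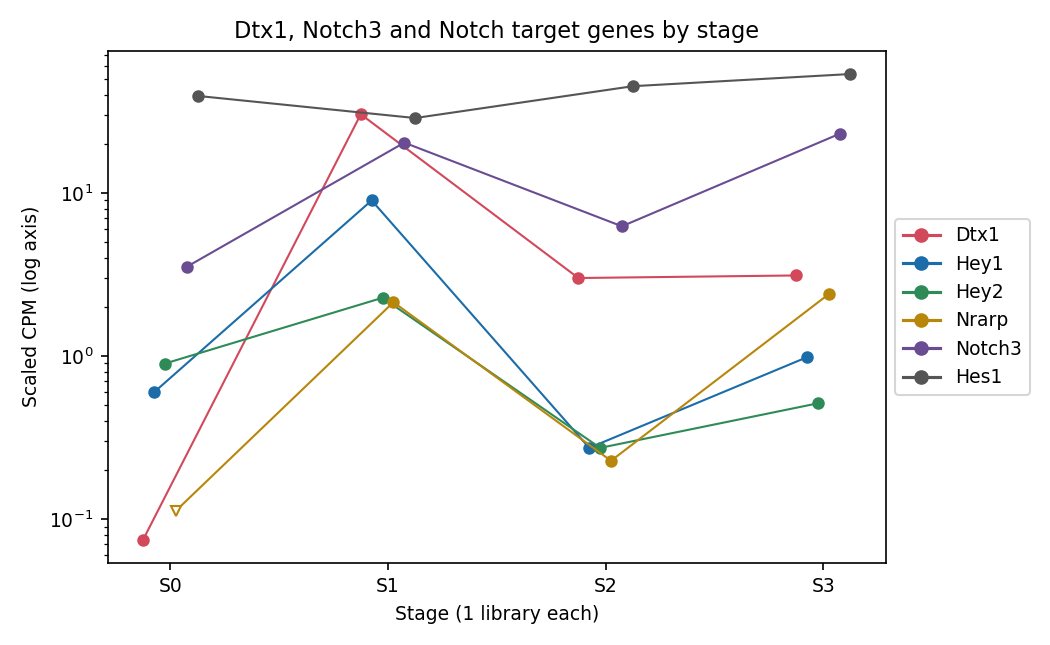
Scaled CPM (log axis) of Dtx1, Notch3, Hes1 and the target genes Hey1, Hey2 and Nrarp at stages S0 to S3, 1 library each. The open triangle marks Nrarp in S0, which had 0 reads and is drawn at 3 reads. Dtx1, Hey1 and Hey2 are highest in S1, Nrarp and Notch3 are high in S1 and S3, and Hes1 is lowest in S1 at 28.8 CPM.

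Of the genes compared, the one whose profile over the 4 libraries was most like that of Notch3 was Nrarp. The root mean square difference of their centred log2(CPM + 0.5) values was 0.09. With an offset of 0.1 CPM the nearest was Cttnbp2 in place of Nrarp. Nrarp had 0, 62, 5 and 56 reads from S0 to S3, so its distance to Notch3 depends on the offset. Their counting intervals for S1 over S0 do not overlap, at 15.0-fold upward for Nrarp and 4.64 to 7.26 for Notch3. For Dtx1 the 5 nearest with the offset of 0.5 CPM were Disp2 (0.141), Col5a3 (0.429), Crmp1 (0.464), Kif5c (0.597) and Tesc (0.629). Disp2 stood well ahead of the next at that offset. It had 24, 1651, 149 and 158 reads from S0 to S3. With an offset of 0.1 CPM Disp2 was the only 1 of the 5 that stayed among the nearest. It was then 2nd, at 0.641 against 0.547 for the nearest gene. The nearest genes were Lrrc9 for Jag2 (0.123), Lrrn4 for Jag1 (0.0633), Cd2bp2 for Hes1 (0.02), G0s2 for Notch1 (0.0366), Ccdc163 for Notch2 (0.0113), Chst12 for Notch4 (0.0221) and Proser2 for Dll1 (0.0421). With an offset of 0.1 CPM only Lrrc9 and Cd2bp2 stayed nearest, and Jag1, Notch1, Notch2, Notch4 and Dll1 each had another nearest gene. G0s2 had 53, 13, 3 and 7 reads from S0 to S3, so its distance to Notch1 depends on the offset. With 4 libraries many genes share any profile, so these distances are a description.

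Of the other listed pathway genes, 76 in all, 68 were compared. In S1 over S0, 8 of them were higher and 12 lower, which is 11.8% and 17.6% beside 12.6% and 13.1% of all genes. In S2 over S1 they numbered 7 and 11 (10.3% and 16.2%, beside 6.71% and 10.1%). In S3 over S2 they numbered 2 and 1 (2.94% and 1.47%, beside 3.69% and 1.14%), and in S3 over S0 3 and 9 (4.41% and 13.2%, beside 9.2% and 10.5%). Their median log2 ratios were -0.34, 0.28, -0.07 and -0.04, beside -0.03, 0.01, 0.01 and 0.05 over all genes compared.

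Of 7 further ligands, 6 were compared, and 4 of these were higher in S1 than in S0 and 1 lower, beside 12.6% and 13.1% of all genes. All 4 higher ones lay below 1 CPM in S0, and Dll3 and Dlk1 passed that limit through S1 alone, so that the filter fixed their direction there. Dner, a ligand-like protein of neurons, had 11, 240, 30 and 31 reads from S0 to S3 and was 20.1-fold higher in S1 (11.0 to 40.7). Cntn1, a neuronal adhesion molecule that can bind Notch, was 30.1-fold higher (11.5 to 112.2) and Dll3, a Delta-like protein that does not activate receptors on other cells, 32.2-fold (5.41 to 1308), with 1 read in S0. Dlk1, a non-canonical ligand, was 3.97-fold higher (2.28 to 7.32). All 4 were lower in S2 than in S1, from 5.29-fold for Dll3 (2.07 to 17.3) to 9.91-fold for Cntn1 (5.22 to 21.1). Dlk2, a relative of Dlk1, stood at 1.31, 2.62, 5.15 and 3.76 CPM, highest in S2, and was called in no comparison. Mfap5, a microfibril protein, was 3.39-fold lower in S1 than in S0 (2.83 to 4.08) and 2.78-fold lower in S3 than in S2 (2.22 to 3.51).

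Of 10 genes for the cleavage of the receptors, 1 was higher and 1 lower in S1 than in S0, near the 12.6% and 13.1% of all genes. These were Aph1b, a gamma-secretase subunit, at 2.29-fold higher (2.1 to 2.49) and Furin, the protease that matures the receptor, at 2.35-fold lower (2.2 to 2.51). The gamma-secretase genes Psen2, Ncstn, Aph1a and Psenen were called in no comparison. In S3 over S0, 0 were higher and 2 lower, beside 9.2% and 10.5%. Adam17, a sheddase, was 2.55-fold lower in S3 than in S0 (2.41 to 2.69). Aph1c, a close relative of Aph1b whose reads could be split with it, was 3.04-fold lower (2.42 to 3.84).

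The Fringe enzymes add sugars to the receptors, and Lfng and Mfng are known to shift their preference from Jagged toward Delta-like ligands. Lfng and Mfng were lower after S0. Lfng stood at 88.5, 10.2, 11.0 and 16.4 CPM from S0 to S3 and was 8.65-fold lower in S1 than in S0 (7.67 to 9.8). Mfng had 195, 73, 15 and 6 reads and was 28.5-fold lower in S3 than in S0 (12.9 to 78.6). Rfng, with 282, 269, 157 and 188 reads, was called in no comparison. Poglut1, an O-glucosyltransferase of the receptors, was 2.55-fold higher in S3 than in S0 (2.38 to 2.72). Over the 7 glycosylation genes, 2 were lower and 0 higher in S1 than in S0 (13.1% and 12.6% of all genes), and 2 were lower and 1 higher in S3 than in S0 (10.5% and 9.2%).

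Of the other deltex genes, Dtx2, Dtx3 and Dtx4 were called in no comparison. Dtx2 had 427, 358, 343 and 363 reads from S0 to S3, and Dtx4 was 2.15-fold lower in S3 than in S0 with an interval (1.94 to 2.4) that reaches below 2-fold. Dtx3l, a ligase that works with Parp9, was 5.46-fold lower in S1 than in S0 (4.58 to 6.54). Per length, Dtx1 in S1 (2.97 RPKM) stood beside Dtx3 (2.82) and above Dtx4 (1.71), Dtx2 (0.898) and Dtx3l (0.389), while in S0 it was lowest of the 5 at 0.00651 RPKM. Among the 15 listed genes of ubiquitin transfer and endocytosis, 0 were higher and 2 lower in S1 than in S0. Of all genes, 12.6% were higher and 13.1% lower. Beside Dtx3l, the lower one was Itch, a ubiquitin ligase that acts on Notch, at 2.52-fold lower (2.4 to 2.66). Neurl1b, a ligase that acts on ligands, had 117, 182, 9 and 90 reads and was 15.3-fold lower in S2 than in S1 (7.88 to 34.0) and 9.38-fold higher in S3 than in S2 (4.72 to 21.2).

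In the nucleus, Rbpj stood at 87.2, 30.3, 34.1 and 29.6 CPM, highest in S0 with the later stages close together. It was 2.88-fold lower in S1 than in S0 (2.66 to 3.12) and 2.95-fold lower in S3 than in S0 (2.71 to 3.21). Of the 22 nuclear genes compared, 1 was higher and 5 lower in S1 than in S0, beside 12.6% and 13.1% of all genes. The other lower ones were the acetyltransferase genes Crebbp at 2.6-fold (2.44 to 2.77) and Kat2b at 2.48-fold (2.27 to 2.71), and the corepressor genes Ctbp1 at 2.6-fold (2.47 to 2.75) and Ctbp2 at 2.26-fold (2.11 to 2.41). Crebbp, Kat2b and Ctbp1 were higher in S2 than in S1, Kat2b by 4.47-fold (4.11 to 4.86). The Mastermind coactivator genes Maml1, Maml2 and Maml3 were called in no comparison, Maml1 being nearest at 2.25-fold lower in S1 than in S0 (1.99 to 2.54).

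**Figure D5:**
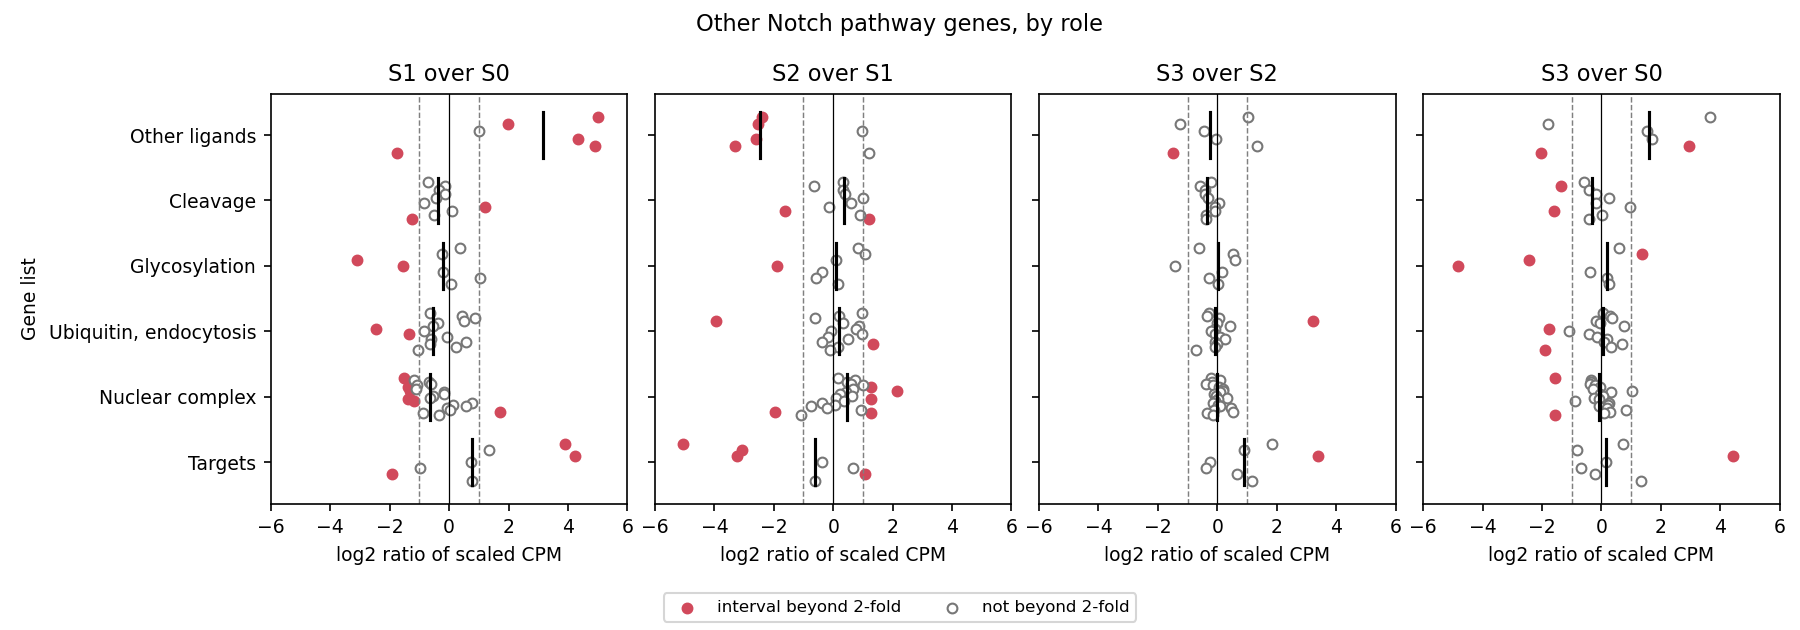
Log2 ratios of scaled CPM of the other listed pathway genes by role, in the 4 comparisons. Hes6 is not drawn. Each point is 1 gene, filled where its counting interval lies beyond 2-fold (dashed lines), and the black bar is the list's median. Further ligands and targets hold the points farthest to the right in S1 over S0, while most cleavage and nuclear genes lie within 2-fold.

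Markers of other cell types moved over the same stages. Of 13 neural markers 10 were compared, and 9 of these were higher in S1 than in S0 and all 10 lower in S2 than in S1, as Dtx1, Dner and Hey1 were. Of all genes, 12.6% were higher in the first step and 10.1% lower in the second. For 5 of the 10 (Elavl3, Syp, Gap43, Syt1 and Snap25), S1 was the sole library at 1 CPM or more, and the filter thereby fixed their direction. The summed level of the 13 was 415, 620, 167 and 221 CPM from S0 to S3, with Nes (nestin), at 399, 381, 146 and 192 CPM, the largest part at each stage. Sox2 had 0 reads in S0, S2 and S3, and Rbfox3 0 in S2. Of 11 mural and stellate cell markers, the types known for Notch3, 9 were compared. In S1, 5 were higher and 3 lower than in S0 (12.6% and 13.1% of all genes). In S3, 2 were higher and 0 lower than in S2 (3.69% and 1.14% of all genes). Rgs5, Kcnj8 and Hhip reached 1 CPM in S1 alone, so that the filter fixed their direction. Lrat lay below 1 CPM in S0 alone, which favours a higher call there. The sum of the 11 was 3975, 602, 279 and 475 CPM, most of it Acta2. Abcc9 had 0 reads in S2, and Pdgfrb stood at 23.2, 6.03, 25.0 and 84.3 CPM. The part of these cells in the Dtx1 and Notch3 values was not tested.

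All 15 macrophage markers were compared, with 2 higher and 11 lower in S1 than in S0 (12.6% and 13.1% of all genes). In S3, 14 were lower than in S0 (10.5% of all genes). Notch1, Lfng, Mfng and Rbpj were also lower in both comparisons. Timd4 reached 1 CPM in S0 alone, so that the filter fixed its direction, and had 0 reads in S2 and S3. Of 15 endothelial markers 10 were compared, with 1 higher and 4 lower in S3 than in S0 (9.2% and 10.5% of all genes). The sum of the 15 was 97.3, 69.7, 103.0 and 102.6 CPM from S0 to S3, in S2 and S3 mostly Eng. Cdh5 fell to 7 reads in S1, against 79 in S0, and Tie1, Emcn, Erg, Sox18 and Clec4g had 0 reads in S3. Cdh5 and Emcn reached 1 CPM in S0 alone, and the filter thereby fixed their direction. The part of macrophages and endothelium in the Notch1, Notch4 and Fringe values was not tested. Dtx1 is also known from lymphocytes. Their 10 markers summed to 2.73, 1.45, 0.592 and 0.939 CPM from S0 to S3, and 1 of them, Cd79b, reached 1 CPM, in S0. In S1, Lck had 21 reads, Cd79a 8, Cd3e 5, Cd3g 3 and Pax5 3, Cd79b and Ms4a1 1 each, and Cd3d and Cd2 0. The part of lymphocytes in the Dtx1 values was not tested.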

How the data were processed

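The authors deposited read counts and RPKM values for each gene, 1 table each, per the file headers. The submitters' processing notes name the build mm9 and the tool bcl2fastq. Per the labels, Trizol was used for RNA isolation and a stranded kit (SMARTer) for the libraries. Neither the aligner nor the counting program and its use of strand is given in the sources used here. In RefSeq (GRCm38.p6) Notch1, Notch2, Notch3 and Dll4 overlap long non-coding genes, whose reads may not be told apart from theirs.

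From the counts, CPM values were computed with TMM factors (edgeR 4.0.16, run under R 4.3.3) over all 4 libraries. Genes at 1 CPM or more in at least 1 library were compared. With 1 library per stage no test across samples was possible. Ratios have exact 95% Clopper-Pearson intervals (scipy 1.17.1, Python 3.11.15). A count of 0 was set at 3 reads, and no ratio was formed where both libraries had 3 reads or fewer. The interval and call were tested on simulated data. PCR copies without molecular identifiers are not independent molecules, so intervals and floors cover counting error only. RPKM values were used for levels between genes. Their count-to-RPKM factor relative to S0 was 0.966, 0.828 and 0.866 for S1 to S3, equal over 8764 genes.

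The members and gene lists were chosen with earlier results of these data known. All members were named. Of the other listed genes, those called were named, up to 6 per list and comparison, and beside these the 5 genes nearest in profile to Dtx1 and the 1 nearest to each other member, and a few values of uncalled genes. Alternatives were other scalings (including DESeq2 1.42.0 size factors), filters and call rules.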

Additional observations from a re-analysis of the deposited data

How the results depend on the processing

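For the members, 188 of 195 results (a ratio with its call), over 5 alternatives of scaling and call rule, kept their direction and their call. The alternative call rules use the same ratios, so only calls could change there, and 4 calls were gained. With an interval beyond 1.5-fold, Notch2 became lower in S1 over S0 and Jag2 higher in S3 over S0. By the ratio itself, Dll4, which never reached 1 CPM, became higher in S1 over S0 and lower in S3 over S2. DESeq2 size factors and TMM over protein-coding genes changed no member's direction or call. Without TMM scaling Jag1 lost its call in S1 over S0 (log2 -1.03), leaving 1 member lower, and Notch2 (log2 -0.051) and Jag1 (log2 -0.10) turned lower in S2 over S1. The deposited RPKM, which have no TMM factor, gave log2 ratios of -0.044 and -0.10 for these. The other pathway genes higher in S2 over S1 numbered 3 without TMM scaling, and the share of higher genes among all called was then 27.1% against 39.8% in S2 over S1.

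Calling by the ratio itself gave 1684 genes higher and 2405 lower in S2 over S1, 1240 higher and 686 lower in S3 over S2 and 2246 higher in S3 over S0. Of the other pathway genes, 6 were then higher and 3 lower in S3 over S2 and 8 higher in S3 over S0. An interval beyond 1.5-fold gave 2997 higher and 3281 lower in S1 over S0, 2248 and 2454 in S2 over S1, 1110 and 512 in S3 over S2, and 2494 higher in S3 over S0. Other pathway genes numbered 23 lower in S1 over S0, 17 higher in S2 over S1, 4 higher and 2 lower in S3 over S2 and 12 higher in S3 over S0. A limit of 5 CPM, which leaves fewer genes, gave 1195 genes higher in S1 over S0 and 975 lower in S2 over S1. Other pathway genes were then 4 higher in S1 over S0, 6 lower in S2 over S1, 1 higher in S3 over S2 and 1 higher in S3 over S0. Leaving out the filter on low counts moved none of these counts by over 1.5 times. With an offset of 0.1 CPM, 1 of the 5 genes nearest to Dtx1 was shared.

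No paired analysis was possible because each stage has 1 library, and for the same reason no replicate was left out. Depth limits Dll4 and Dll1 at every stage and Dtx1 and Nrarp in S0.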

Other observations

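Genes of neural and endocrine commitment that Hes proteins are known to repress were near the limit of detection. Of 10 listed proneural genes, 1 was compared, Ascl2, a member of that family known from trophoblast and gut stem cells. It had 12, 64, 5 and 16 reads from S0 to S3, and was 4.91-fold higher in S1 than in S0 (2.62 to 9.99) and 9.68-fold lower in S2 than in S1 (3.94 to 30.8). It reached 1 CPM in S1 alone, so that the filter fixed both directions. Neurog2 had 0, 26, 1 and 1 reads and Neurod1 0, 13, 0 and 3. Neurog1, Neurog3, Neurod4 and Atoh1 had 0 at every stage.

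Markers of bile duct cells, the liver cells whose formation depends on Notch, went in different directions. Of 9 listed, 8 were compared, with 3 higher and 1 lower in S1 than in S0, 0 higher and 3 lower in S2 than in S1, and 2 higher and 0 lower in S3 than in S2. Over all genes these shares were 12.6% and 13.1%, 6.71% and 10.1%, and 3.69% and 1.14%. Cftr, with 7, 54, 11 and 6 reads from S0 to S3, reached 1 CPM in S1 alone, and the filter thereby fixed its direction. Epcam stood at 3.97, 40.0, 14.0 and 15.7 CPM, highest in S1. Krt7 stood at 204, 144, 73.5 and 215 CPM from S0 to S3, lowest in S2. Prom1 stood at 1.98, 18.0, 4.42 and 12.3 CPM, with S1 and S3 high. Krt19 stood at 239, 101, 87.4 and 74.0 CPM, highest in S0. Sox9, a duct factor that Notch can induce, stood at 3.33, 5.72, 3.73 and 8.32 CPM and was called in no comparison, with S3 2.5-fold higher than S0 (1.93 to 3.25).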
